A study of Danio rerio with 5 samples.

Results

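Zebrafish embryos that lack Dicer and were injected with a miR-430 duplex were compared with wild type embryos at 6 h after fertilization, at the shield stage. The comparison uses 2 of the 5 libraries of the study. It covers 14097 of 26158 gene identifiers, those with a mean level of at least 1 CPM (counts per 1000000 scaled counts) over all 5 libraries. Each library holds polyadenylated RNA from 15 pooled whole embryos raised at 28C. The wild type embryos were of the TU/AB/TL/TLF strain and received no treatment. The Dicer-deficient embryos, called MZdicer, lack both maternal and zygotic Dicer and were homozygous for the hu896 allele. For the library compared here, they were injected at the 1-cell stage with 1 nl of a 25 µM stock of the duplex. The other 3 libraries came from MZdicer embryos as well. They were left uninjected, injected with a miR-430 hairpin processed by Argonaute 2 (Ago2) without Dicer, or injected with that hairpin carrying 3 phosphorothioate bonds (3xPS hairpin), at the same volume and stock concentration.

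Each group is 1 library, so no value carries a replicate error and no p-value can be given. The groups compared differ in genotype, strain background and injection at once, and no library of injected wild type embryos or of embryos injected with an unrelated RNA is analysed here. The effects of Dicer loss, strain, injection and small differences in stage therefore cannot be told apart. Brackets below hold the 95% exact conditional binomial interval of a ratio, which covers counting error only. A gene is called higher or lower where its CPM differed at least 2-fold and that interval excluded equality.

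Dicer cuts microRNA precursors into short duplexes, and a single strand of each duplex is loaded into an Argonaute protein that then finds complementary sites in mRNAs. miR-430 is the most abundant microRNA family of the early zebrafish embryo. It is transcribed when the zygotic genome becomes active and speeds the deadenylation and decay of mRNAs that the mother laid down in the egg. Embryos without maternal and zygotic Dicer make no mature miR-430, keep many maternal mRNAs for longer and form abnormal brains. A duplex enters Argonaute without a Dicer step. Since the libraries were made from polyadenylated RNA, a shorter poly(A) tail and a loss of the mRNA cannot be told apart.

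The wild type and duplex libraries held 26300080 and 25317886 counts, and the other 3 held 14867084 to 24623675. Scaling factors by TMM ranged from 0.967 to 1.02. Markers of the shield-stage embryo were present, with all 21 matched epiblast genes, 16 of 20 dorsal organizer genes, 17 of 23 mesoderm and endoderm genes and 25 of 30 enveloping layer genes measured. Of 37 matched markers of tissues that have not formed at this stage, 6 were measured and 7 had no count in any library. Of the 6, tfa and cahz were not near 0, at 73.8 and 58.9 CPM in wild type and 57.3 and 58.3 CPM after the duplex. tfa is also listed here with the yolk syncytial layer. DICER1 (ENSDARG00000001129), the gene mutated in the line, was at 36.5 CPM in wild type embryos, 22.5 CPM after the duplex, 22.7 CPM in uninjected MZdicer, 20.1 CPM after the hairpin and 23.05 CPM after the 3xPS hairpin. Its mRNA was 1.62-fold lower [1.46, 1.8] with the duplex than in wild type, and all 4 MZdicer libraries lay below it.

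The duplex library still differed widely from wild type. Of the measured genes, 1573 were higher in it (11.2%) and 604 were lower (4.28%), together 15.4%. Counts of calls in the gene lists below are to be read beside these shares. Higher genes made up 72.3% of the calls. The filter uses the mean of the 5 libraries, mostly MZdicer. It keeps genes low only in wild type more readily than genes present only there. Without a filter 61.5% of calls were higher, and with a mean of at least 5 CPM 80.4%. Under upper-quartile scaling, which moved the median difference of all genes by -0.10 on the log2 scale, the calls were 1294 higher and 809 lower, and 61.5% of them were higher. The median gene differed by 0.37 in absolute log2(CPM + 0.5), and the 90th percentile was 1.07. At least 4-fold differences were found for 355 higher and 106 lower genes, and at least 16-fold differences for 45 and 22.

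**Figure D1:**
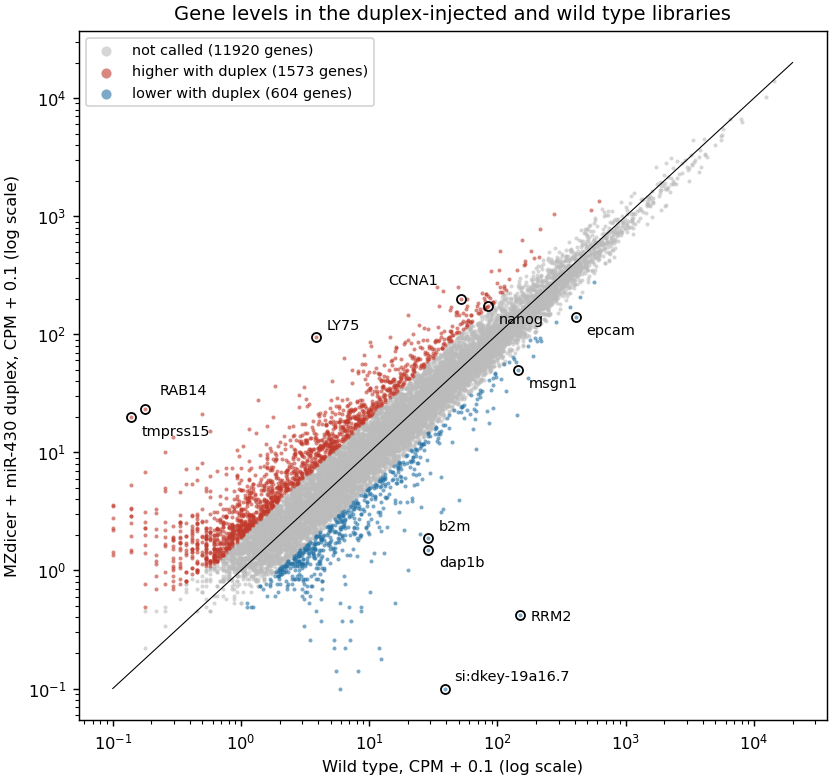
Level of each of the 14097 measured genes in wild type (x axis) and in the duplex library (y axis), as CPM + 0.1 on log axes, with the line of equality. Red points are the 1573 genes called higher with the duplex and blue points the 604 called lower, and circled genes are named in the text; grey points are not called, among them most genes of high level.

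The calls were unevenly spread over expression level. Among genes with a mean of 1 to 3 CPM, 18.3% were higher and 10.9% lower. Among those of at least 100 CPM, 4.76% were higher and 0.476% lower, which is 100 and 10 of 2102 genes. Genes called higher had a median level of 2.12 CPM in wild type and 6.75 CPM with the duplex, and a median deposited length of 2542 bases. Genes called lower went from a median of 6.25 CPM in wild type to 2.01 CPM, with a median length of 1901 bases. The median length of all measured genes was 2205 bases.

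For scale, uninjected MZdicer differed from the same wild type library at 2648 higher genes (18.8%) and 1024 lower genes (7.26%). The hairpin library differed from it at 22.8% of genes and the 3xPS hairpin library at 24.2%. These comparisons share the wild type library, and the uninjected library is the shallowest. With every library thinned to that depth, the duplex library differed from wild type at 1520 higher and 656 lower genes, and uninjected MZdicer at 2622 and 1017. The absolute log2 difference of the median gene was 0.51 for uninjected MZdicer.

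Known miR-430 targets were near the wild type level in part. Of 17 listed names 9 matched an identifier and 8 were measured, 1 of them (cxcl12b) a paralog of a described target. Of the 8, 3 were called higher with the duplex than in wild type (37.5%, beside 11.2% of all measured genes) and none lower. Of the 8, 7 lay above wild type, as did 7375 of the 14097 measured genes. The median log2 difference of the 8 from wild type was 0.32 with the duplex and 1.32 in uninjected MZdicer. Over all measured genes these medians were 0.03 and 0.02. Without cxcl12b, 2 of 7 were higher and 6 lay above wild type, with medians of 0.31 and 1.36.

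Among the targets that encode Nodal signals and their inhibitors, lft2, a secreted Nodal antagonist, was at 14.5 CPM in wild type embryos, 16.8 CPM after the duplex, 82.8 CPM in uninjected MZdicer, 42.3 CPM after the hairpin and 37.5 CPM after the 3xPS hairpin. The duplex value lay beside wild type, 1.16-fold higher [1.01, 1.34], while uninjected MZdicer was 5.72-fold higher [5.09, 6.45]. The Nodal ligand ndr1 (squint) was at 2.4 CPM in wild type embryos, 5.29 CPM after the duplex, 32.8 CPM in uninjected MZdicer, 20.7 CPM after the hairpin and 18.1 CPM after the 3xPS hairpin. It was called higher with the duplex, 2.2-fold higher [1.62, 3.03], yet lay far below the other 3 MZdicer libraries. lft1, the other Lefty gene, was at 34.3 CPM in wild type embryos and 43.1 CPM after the duplex, 1.26-fold higher [1.15, 1.38], and at 44.4 to 51.5 CPM in the other MZdicer libraries. All 4 MZdicer values of lft1 lay above wild type, and the duplex value was nearest to it.

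Targets expressed in the germ line also differed among themselves. tdrd7a, a Tudor-domain gene of germ granules, was at 30.4 CPM in wild type embryos and 30.6 CPM after the duplex, and at 73.8, 42.4 and 52.2 CPM in the uninjected, hairpin and 3xPS hairpin libraries of MZdicer. It did not differ from wild type beyond counting error, 1.01-fold higher [0.911, 1.11]. DAZL, an RNA-binding protein of germ cells, was at 8.97 CPM in wild type embryos and 11.2 CPM after the duplex, and at 23.8, 16.03 and 17.6 CPM in the uninjected, hairpin and 3xPS hairpin libraries of MZdicer, which placed the duplex 1.25-fold higher [1.05, 1.49] than wild type. NANOS3, a translational repressor of primordial germ cells, was at 20.8 CPM in wild type embryos and 13.8 CPM after the duplex, and at 17.6, 20.7 and 17.5 CPM in the uninjected, hairpin and 3xPS hairpin libraries of MZdicer. It was lowest with the duplex, 1.51-fold lower [1.32, 1.74] than in wild type, and was not called.

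CCNA1, the maternal cyclin A gene, was at 51.6 CPM in wild type embryos, 198 CPM after the duplex, 1027 CPM in uninjected MZdicer, 626 CPM after the hairpin and 746 CPM after the 3xPS hairpin. It was called higher with the duplex, 3.83-fold higher [3.61, 4.08], but was 5.19-fold lower [5.03, 5.36] than in uninjected MZdicer. cxcl12b, a chemokine gene and paralog of the described target cxcl12a, was at 28.1 CPM in wild type embryos, 69.5 CPM after the duplex, 68.9 CPM in uninjected MZdicer, 69.97 CPM after the hairpin and 78.3 CPM after the 3xPS hairpin. All 4 MZdicer values lay above wild type, and the duplex was 2.48-fold higher [2.27, 2.7] than wild type. Against uninjected MZdicer the duplex value of cxcl12b was within counting error, 1.01-fold higher [0.934, 1.09], as was that of lft1, 1.03-fold lower [0.933, 1.13].

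**Figure D2:**
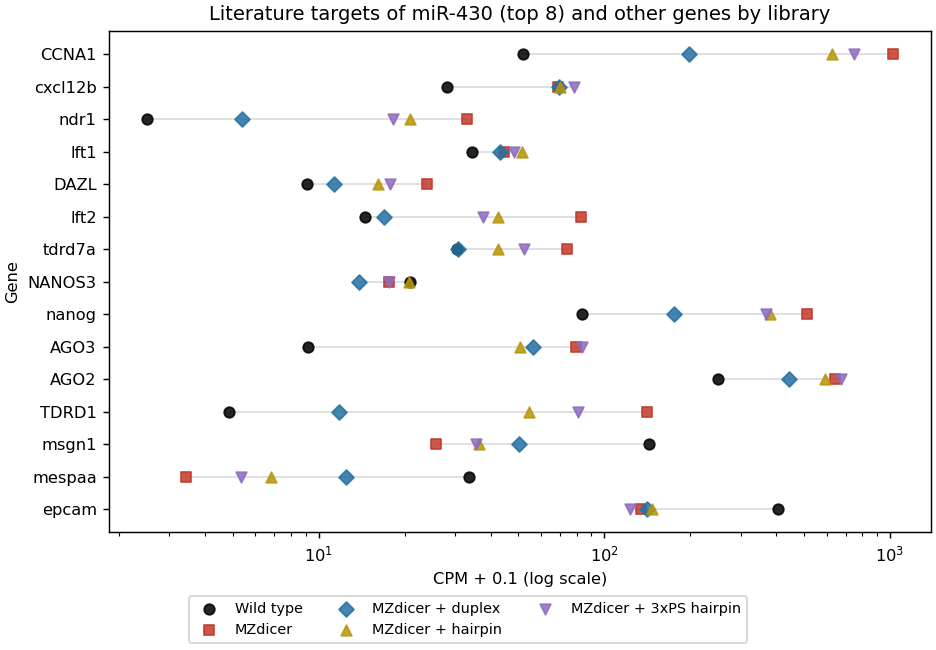
Level of the 8 measured genes of the list of literature targets of miR-430, the paralog cxcl12b included (top), and of 7 other genes named in the text, as CPM + 0.1 on a log axis, with 1 point per library and a line over the range of the 5 libraries. For tdrd7a and lft2 the duplex point lies beside wild type, for CCNA1 and ndr1 between wild type and the other MZdicer libraries, and for cxcl12b and epcam among the MZdicer libraries.

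Of the microRNA pathway, 23 genes were measured, and 3 were higher and none lower with the duplex than in wild type, with a median log2 difference of 0.11 (0.10 in uninjected MZdicer). The share called higher, 13%, was near the 11.2% of all measured genes. Of the 4 Argonaute genes named here, 1 was called. AGO3 (ENSDARG00000063079), an Argonaute gene, was at 9.09 CPM in wild type embryos, 56.01 CPM after the duplex, 79.2 CPM in uninjected MZdicer, 50.7 CPM after the hairpin and 83.7 CPM after the 3xPS hairpin. All 4 MZdicer libraries lay above wild type, and the duplex was 6.16-fold higher [5.36, 7.11]. AGO2, the Argonaute with slicer activity, was at 249 CPM in wild type embryos and 444 CPM after the duplex, and at 642, 590.3 and 675 CPM in the uninjected, hairpin and 3xPS hairpin libraries of MZdicer, or 1.78-fold higher [1.73, 1.84] with the duplex, short of the 2-fold mark. ago3a was at 4.17 CPM in wild type embryos and 8.05 CPM after the duplex, 1.93-fold higher [1.52, 2.47]. AGO1 differed in its order, at 3.62 CPM in wild type embryos and 3.95 CPM after the duplex but 24.7 CPM in uninjected MZdicer, so that the duplex was 1.09-fold higher [0.813, 1.46] than wild type and within counting error of it.

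DGCR8, the RNA-binding partner of Drosha in the nucleus, was 2.66-fold higher [2.53, 2.8], at 81.9 CPM in wild type embryos and 218 CPM after the duplex. DIS3L2, an exonuclease that degrades uridylated RNA, was 2.07-fold higher [1.96, 2.18]. PRKRA, a double-stranded RNA-binding partner of Dicer, was at 6.92 CPM in wild type embryos and 12.9 CPM after the duplex and was not called, 1.86-fold higher [1.54, 2.25]. Of 51 measured genes of deadenylation and decapping, the machinery through which miRNAs act, 3 were higher (5.88%) and none lower, with a median of 0.19. The 3 were DDX6, a helicase that represses translation, 3.01-fold higher [2.55, 3.55]; CNOT8, a catalytic deadenylase subunit, 2.54-fold higher [2.42, 2.68]; and lsm14aa, a P-body protein, 2.3-fold higher [2.22, 2.38]. PAN3, part of the PAN2-PAN3 deadenylase, was just short of a call, 1.98-fold lower [1.87, 2.1].

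Maternal and oocyte genes were split. Of 41 measured, 3 were higher and 3 lower (7.32% each) with the duplex than in wild type, beside 11.2% and 4.28% of all measured genes. The median difference of the list was -0.03, a sign that turns with total-count scaling. Uninjected MZdicer had 15 higher and 2 lower in this list against the same wild type library, with a median of 0.32. Over all measured genes, 18.8% were higher and 7.26% lower in uninjected MZdicer. Several oocyte genes that earlier results of these data named were near the wild type level with the duplex. buc (Bucky ball), the organizer of the oocyte's Balbiani body, was at 7.36 CPM in wild type embryos, 6.0 CPM after the duplex, 169 CPM in uninjected MZdicer, 25.04 CPM after the hairpin and 27.005 CPM after the 3xPS hairpin. The duplex and wild type values did not differ beyond counting error, 1.23-fold lower [0.985, 1.53]. BICC1, an RNA-binding regulator of maternal mRNAs, was at 0.59 CPM in wild type embryos, 0.71 CPM after the duplex, 40.1 CPM in uninjected MZdicer, 3.49 CPM after the hairpin and 12.8 CPM after the 3xPS hairpin, and the duplex ratio of 1.2-fold higher [0.573, 2.57] again included equality. LSM14B, an RNA-granule protein of the oocyte, was at 10.7 CPM in wild type embryos and 8.68 CPM after the duplex, and at 172, 33.4 and 32.5 CPM in the uninjected, hairpin and 3xPS hairpin libraries of MZdicer, which left the duplex 1.24-fold lower [1.03, 1.48] than wild type.

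Other maternal genes were apart from wild type. CCNA1, described with the targets, is also counted as higher in the maternal list and among the cell cycle genes. GDF9, an oocyte growth factor, was at 1.42 CPM in wild type embryos and 6.2 CPM after the duplex, and at 16.3, 10.998 and 10.8 CPM in the uninjected, hairpin and 3xPS hairpin libraries of MZdicer and 4.38-fold higher [3.03, 6.47] with the duplex. cth1, a zinc-finger RNA-binding gene, was 2.39-fold higher [2.23, 2.57], at 43.3 CPM in wild type embryos and 103 CPM after the duplex. On the lower side, SYCP1, a component of the meiotic synaptonemal complex, was at 6.25 CPM in wild type embryos and 0.789 CPM after the duplex, and at 1.81, 0.365 and 0.323 CPM in the uninjected, hairpin and 3xPS hairpin libraries of MZdicer. It was 7.92-fold lower [4.96, 13.3] with the duplex, and all 4 MZdicer values lay below wild type. npm2a, a nucleoplasmin gene of the egg, was 2.27-fold lower [1.81, 2.86], and 4.02 to 4.42 CPM in the 4 MZdicer libraries.

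Of 21 germ plasm genes measured, 2 were higher (9.52%, beside 11.2% of all measured genes) and none lower. The median of the list was 0.36 against 0.72 in uninjected MZdicer. TDRD1, a Tudor protein of the piRNA pathway, was at 4.76 CPM in wild type embryos, 11.7 CPM after the duplex, 141 CPM in uninjected MZdicer, 54.3 CPM after the hairpin and 80.9 CPM after the 3xPS hairpin. The duplex was 2.46-fold higher [1.99, 3.07] than wild type, and the other 3 MZdicer libraries were far above both. RBPMS2 (ENSDARG00000079578), an RNA-binding protein that partners Bucky ball, was at 20.7 CPM in wild type embryos and 66.1 CPM after the duplex, and at 98.2, 83.2 and 88.7 CPM in the uninjected, hairpin and 3xPS hairpin libraries of MZdicer, 3.19-fold higher [2.89, 3.52] with the duplex. A second identifier with that symbol, ENSDARG00000045930, was at 5.43 CPM in wild type embryos and 9.79 CPM after the duplex and was not called. PIWIL1, a piRNA-binding Argonaute relative, was at 49.3 CPM in wild type embryos and 31.5 CPM after the duplex, 1.56-fold lower [1.43, 1.71].

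The genes lower with the duplex included mesoderm and tail genes. Of 17 measured mesoderm and endoderm genes, 4 were lower (23.5%) and none higher, with a median of -0.54 (-0.80 in uninjected MZdicer). Of 20 presomitic and tail genes, 4 were lower (20%) and none higher, with a median of -0.57 (-0.98 in uninjected MZdicer). The lists share 5 genes, 3 of them called lower. Over all measured genes 4.28% were lower and 11.2% higher. msgn1, a factor of presomitic mesoderm, was at 143 CPM in wild type embryos, 50.01 CPM after the duplex, 25.6 CPM in uninjected MZdicer, 36.2 CPM after the hairpin and 35.6 CPM after the 3xPS hairpin. Wild type was highest, the duplex was 2.87-fold lower [2.69, 3.06] than wild type, and it was above the other MZdicer libraries. mespaa, a segmentation factor, was at 33.4 CPM in wild type embryos and 12.4 CPM after the duplex, and at 3.34, 6.7 and 5.25 CPM in the uninjected, hairpin and 3xPS hairpin libraries of MZdicer and 2.69-fold lower [2.36, 3.08] with the duplex. tbx6, a T-box factor of the same tissue, was at 7.47 CPM in wild type embryos and 2.17 CPM after the duplex, and at 0.869, 1.14 and 1.13 CPM in the uninjected, hairpin and 3xPS hairpin libraries of MZdicer, 3.44-fold lower [2.54, 4.74]. cdx4, a posterior homeobox gene, was at 195 CPM in wild type embryos and 92.7 CPM after the duplex, and at 39.5, 43.8 and 33.3 CPM in the uninjected, hairpin and 3xPS hairpin libraries of MZdicer, 2.11-fold lower [2.01, 2.21]. In each of these 4 genes the duplex value lay between wild type and the other 3 MZdicer libraries.

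snai1b, a Snail factor of cell movement, showed another order. It was at 14.8 CPM in wild type embryos and 5.72 CPM after the duplex, and at 6.69, 6.49 and 5.21 CPM in the uninjected, hairpin and 3xPS hairpin libraries of MZdicer, so the duplex did not stand above the other MZdicer libraries and was 2.59-fold lower [2.13, 3.16] than wild type. her7, an oscillating segmentation clock gene, was at 71.9 CPM in wild type embryos and 40.1 CPM after the duplex and 37.1 to 38.7 CPM in the other MZdicer libraries. With 1.79-fold lower [1.66, 1.94] it was not called. drl (draculin), an early lateral mesoderm gene, was 1.67-fold lower [1.43, 1.95] and not called. In whole-embryo RNA, fewer cells of a type and less RNA per cell cannot be told apart.

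Nodal pathway genes were mostly near wild type. Of 20 measured, ndr1 alone was higher and none was lower, with a median of -0.03 whose sign turns with total-count scaling. mixl1, a Nodal-induced homeobox gene, was at 38.04 CPM in wild type embryos and 25.5 CPM after the duplex, and at 49.4, 52.3 and 46.5 CPM in the uninjected, hairpin and 3xPS hairpin libraries of MZdicer, so it was lowest with the duplex, 1.49-fold lower [1.35, 1.65], without a call. The receptor gene ACVR2B was 1.7-fold higher [1.54, 1.89] and the repressor gene SKI was 1.58-fold higher [1.47, 1.7], neither called. Of 16 dorsal organizer genes, 1 was higher and none lower, with a median of -0.06. That gene was an SHH identifier (ENSDARG00000038867) at 0.551 CPM in wild type embryos and 1.42 CPM after the duplex, 2.58-fold higher [1.36, 5.18], a Hedgehog ligand. It passed the filter only through the MZdicer libraries. The other SHH identifier, ENSDARG00000068567, had the reverse order, at 5.9 CPM in wild type embryos and 3.35 CPM after the duplex, and was not called. FOXA2, a floor plate and endoderm factor, was at 23.2 CPM in wild type embryos and 37.6 CPM after the duplex, 1.62-fold higher [1.46, 1.8], and foxa3 was 1.45-fold higher [1.4, 1.5], both without a call.

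Ventral genes of the BMP pathway were lower in 2 of 22 (9.09%) and higher in none, beside 4.28% and 11.2% of all measured genes. Their median was -0.24 (-0.62 in uninjected MZdicer). msx3, a homeobox target of BMP, was at 23.4 CPM in wild type embryos and 8.01 CPM after the duplex, and at 3.41, 5.72 and 2.3 CPM in the uninjected, hairpin and 3xPS hairpin libraries of MZdicer, 2.92-fold lower [2.49, 3.44] with the duplex. msx1b was at 37.4 CPM in wild type embryos and 17.1 CPM after the duplex, and at 6.89, 9.37 and 5.29 CPM in the uninjected, hairpin and 3xPS hairpin libraries of MZdicer, 2.2-fold lower [1.96, 2.47]. Both genes were highest in wild type and second highest with the duplex. eve1, a ventral homeobox gene, was 1.87-fold lower [1.78, 1.96], and ID1, a direct BMP target, 1.66-fold lower [1.61, 1.71], each without a call. bmp7a, a BMP ligand, was 1.39-fold lower [1.34, 1.45].

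Anterior neural and placode genes had 2 higher and 2 lower of 21 (9.52% each), with a median of -0.16 (-0.67 in uninjected MZdicer). Over all measured genes 11.2% were higher and 4.28% lower. SIX3 (ENSDARG00000054879), a forebrain homeobox gene, was at 11.2 CPM in wild type embryos and 5.01 CPM after the duplex, and at 0.602, 2.64 and 2.66 CPM in the uninjected, hairpin and 3xPS hairpin libraries of MZdicer, 2.23-fold lower [1.8, 2.77]. The second SIX3 identifier, ENSDARG00000058008, was at 0.905 CPM in wild type embryos and 3.24 CPM after the duplex and 3.58-fold higher [2.23, 5.95]. six4b, a placode gene, was at 6.77 CPM in wild type embryos and 2.21 CPM after the duplex, and at 0.669, 2.11 and 1.9 CPM in the uninjected, hairpin and 3xPS hairpin libraries of MZdicer, 3.06-fold lower [2.25, 4.22]. ZIC1, a neural plate factor, was 2.79-fold higher [1.71, 4.71], at 0.905 CPM in wild type embryos and 2.53 CPM after the duplex. ZIC1 and the second SIX3 identifier lay below 1 CPM in wild type and passed the filter only through the MZdicer libraries. The share called higher therefore leans to the higher side. Of 21 epiblast genes 1 was called, with a median of -0.11. It was nanog, the maternally supplied pluripotency factor, at 83.6 CPM in wild type embryos, 175 CPM after the duplex, 512 CPM in uninjected MZdicer, 382 CPM after the hairpin and 368 CPM after the 3xPS hairpin, 2.09-fold higher [1.99, 2.2] with the duplex. sox19a, an early neural SoxB1 gene, was at 692 CPM in wild type embryos and 403 CPM after the duplex, 1.72-fold lower [1.68, 1.76], and klf17, an epiblast and hatching gland gene, was 1.72-fold lower [1.65, 1.79], neither called.

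Genes of the enveloping layer, the outermost epithelium of the embryo, were lower in 1 (4%) and higher in 2 (8%) of 25. Over all measured genes 4.28% were lower and 11.2% higher. The median of the list was -0.31 (-0.54 in uninjected MZdicer). epcam, an epithelial adhesion protein that also acts in the enveloping layer, was at 407 CPM in wild type embryos, 141 CPM after the duplex, 134 CPM in uninjected MZdicer, 147 CPM after the hairpin and 123 CPM after the 3xPS hairpin. All 4 MZdicer libraries lay below wild type, and the duplex was 2.89-fold lower [2.78, 3.0]. The higher pair was cldn7b, a claudin of tight junctions, at 164 CPM in wild type embryos and 421 CPM after the duplex, 2.57-fold higher [2.48, 2.66], and spint1b, an inhibitor of the protease matriptase, at 21.6 CPM in wild type embryos and 62.7 CPM after the duplex, 2.9-fold higher [2.63, 3.2]. Keratins were lower in 1 of 12 (8.33%, beside 4.28% of all measured genes) and higher in none, with a median of -0.31. The keratin list shares members with the enveloping layer list, krt4 among them. Of the 12, 11 lay below wild type, as did 6722 of the 14097 measured genes. krt99 was at 566 CPM in wild type embryos and 278 CPM after the duplex, and at 152, 301 and 205 CPM in the uninjected, hairpin and 3xPS hairpin libraries of MZdicer, 2.03-fold lower [1.98, 2.09], and krt17 was just short of a call, 1.98-fold lower [1.87, 2.08].

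Yolk syncytial layer genes were measured for 16 names, with 1 higher (6.25%) and 2 lower (12.5%), beside 11.2% and 4.28% of all measured genes. Their median was 0.30 (-0.24 in uninjected MZdicer). mxtx2, which initiates the yolk syncytial layer programme, was at 2.75 CPM in wild type embryos and 9.95 CPM after the duplex, and at 14.5, 19.9 and 20.3 CPM in the uninjected, hairpin and 3xPS hairpin libraries of MZdicer, 3.61-fold higher [2.76, 4.78] with the duplex. apoa1a, an apolipoprotein of the yolk cell, was at 92.8 CPM in wild type embryos and 42.7 CPM after the duplex, and at 21.1, 31.9 and 27.3 CPM in the uninjected, hairpin and 3xPS hairpin libraries of MZdicer, 2.17-fold lower [2.02, 2.34]. The other lower gene was dap1b, listed here with earlier results of these data known and not an established marker of that layer.

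Genes of apoptosis and the p53 response gave 3 higher (10.3%) and 2 lower (6.9%) of 29, with a median of 0.25. Over all measured genes 11.2% were higher and 4.28% lower. bbc3 (Puma), a p53-induced killer gene, was at 28.1 CPM in wild type embryos and 8.45 CPM after the duplex, and at 15.05, 11.7 and 10.1 CPM in the uninjected, hairpin and 3xPS hairpin libraries of MZdicer, 3.33-fold lower [2.85, 3.89] with the duplex. The stress gene sesn2 was 3.14-fold higher [2.45, 4.06], and APAF1, the apoptosome scaffold, was 2.14-fold higher [1.92, 2.39]. SESN1 was at 12.5 CPM in wild type embryos and 24.9 CPM after the duplex, and at 99.7, 36.6 and 47.6 CPM in the uninjected, hairpin and 3xPS hairpin libraries of MZdicer, so it was 1.98-fold higher [1.73, 2.27] than wild type and lay well below uninjected MZdicer. Interferon and RNA-sensing genes gave 1 higher and 1 lower of 11, with a median of 0.00 whose sign turns with DESeq2 and with upper-quartile scaling. The lower gene was b2m, 16.01-fold lower, which is described with the genes furthest from wild type. ifit8 was 2.01-fold higher [1.31, 3.12], at 1.34 CPM in wild type embryos and 2.68 CPM after the duplex, which was also the highest of the 5 libraries. isg15, a ubiquitin-like interferon-induced gene, was at 3.74 CPM in wild type embryos and 2.13 CPM after the duplex and was not called.

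Cell cycle and replication genes were higher in 3 (3.57%) and lower in 2 (2.38%) of 84, beside 11.2% and 4.28% of all measured genes. Their median was -0.25 (-0.19 in uninjected MZdicer). MCM6 (ENSDARG00000033231), a subunit of the replicative helicase, was at 174 CPM in wild type embryos and 78.9 CPM after the duplex, and at 87.9, 90.9 and 83.8 CPM in the uninjected, hairpin and 3xPS hairpin libraries of MZdicer, 2.2-fold lower [2.09, 2.32] with the duplex. GINS2, a partner of that helicase, was at 3.03 CPM in wild type embryos and 11.96 CPM after the duplex, and at 14.2, 13.2 and 11.7 CPM in the uninjected, hairpin and 3xPS hairpin libraries of MZdicer, 3.95-fold higher [3.07, 5.14]. MCM10 was 1.88-fold lower [1.72, 2.05] and not called. The largest difference of the list, RRM2, is described with the genes furthest from wild type.

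Protein synthesis genes differed little and mostly lay below wild type. None of 72 cytosolic ribosomal protein genes was called, but 70 lay below wild type, as did 6722 of the 14097 measured genes. The 74 matched genes of this list held 21213 CPM together in wild type. Calls were also few among all genes of at least 100 CPM, 4.76% higher and 0.476% lower. The median of the ribosomal list was -0.28 (-0.44 in uninjected MZdicer) and ranged from -0.39 to -0.23 over the scalings tried. RPL12 was at 799 CPM in wild type embryos and 522 CPM after the duplex, 1.53-fold lower [1.5, 1.57], and rps20 1.49-fold lower [1.44, 1.55]. RPS2, above wild type, was 1.45-fold higher [1.4, 1.49]. Mitochondrial ribosomal genes were lower in 2 of 63 and higher in none, with a median of -0.24. MRPS35 was at 11.01 CPM in wild type embryos and 5.33 CPM after the duplex, and at 20.2, 18.4 and 17.9 CPM in the uninjected, hairpin and 3xPS hairpin libraries of MZdicer, 2.07-fold lower [1.68, 2.56] and lowest with the duplex, while MRPL48 was 2.14-fold lower [1.59, 2.9]. Respiratory chain genes had 1 call of 79, a higher one with 2.6-fold higher [2.22, 3.07] for NDUFAF2, which is an assembly factor, and a median of -0.19. No proteasome gene of 43 was called (median -0.16), and no Wnt or FGF pathway gene of 33 (median -0.11). In the last list, dvl2, a Wnt signal transducer, was at 213 CPM in wild type embryos and 123 CPM after the duplex, and at 271, 251 and 244 CPM in the uninjected, hairpin and 3xPS hairpin libraries of MZdicer, lowest with the duplex at 1.73-fold lower [1.66, 1.81].

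Adhesion and gastrulation genes had 3 higher and 3 lower of 32 (9.38% each, beside 11.2% and 4.28% of all measured genes). The median of the list was -0.03, whose sign turns with total-count scaling. LAMA5, a laminin chain, was at 21.9 CPM in wild type embryos and 6.47 CPM after the duplex, and at 3.41, 5.4 and 3.83 CPM in the uninjected, hairpin and 3xPS hairpin libraries of MZdicer, 3.38-fold lower [2.8, 4.05], and an FN1 identifier for fibronectin, ENSDARG00000006526, was 2.81-fold lower [2.12, 3.77], at 7.55 CPM in wild type embryos and 2.68 CPM after the duplex. CLDN12 was 2.34-fold higher [2.19, 2.5]. Among 25 genes commonly used as references, 1 was higher and 2 were lower, with a median of -0.02 that also turns with total-count scaling. The lower genes included b2m, which is also counted among the interferon and RNA-sensing genes. TUBA1A, a tubulin gene, was at 8.22 CPM in wild type embryos and 23.997 CPM after the duplex, and at 10.6, 16.03 and 14.5 CPM in the uninjected, hairpin and 3xPS hairpin libraries of MZdicer, 2.92-fold higher [2.49, 3.43]. TBP, the TATA-binding protein, was at 42.1 CPM in wild type embryos, 41.4 CPM after the duplex, 151 CPM in uninjected MZdicer, 115 CPM after the hairpin and 103 CPM after the 3xPS hairpin. The duplex did not differ from wild type in TBP beyond counting error, 1.02-fold lower [0.934, 1.11], and the other 3 MZdicer libraries were above both.

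Of the transcription factor families with more than 1 measured member, SOX and FOX had medians above wild type. Both have many members of low level. SOX genes were higher in 4 of 14 and lower in none, with a median of 0.43 (0.84 in uninjected MZdicer). The 4 were SOX9 (ENSDARG00000003293), a factor of cartilage and neural crest, 4.01-fold higher [2.65, 6.26]; SOX4, 2.6-fold higher [1.9, 3.6]; SOX7, 2.48-fold higher [1.65, 3.81]; and sox4a, 2.8-fold higher [1.38, 6.24]. Their wild type levels lay between 0.433 and 2.2 CPM. FOX genes were higher in 7 of 27 and lower in none, with a median of 0.31 (0.50 in uninjected MZdicer). foxj1b, a factor of motile cilia, was at 1.81 CPM in wild type embryos and 4.97 CPM after the duplex, 2.75-fold higher [1.95, 3.94], and FOXP4 was 3.7-fold higher [1.98, 7.45], at 0.511 CPM in wild type embryos and 1.89 CPM after the duplex. The shares called higher, 28.6% of SOX and 25.9% of FOX genes, stand beside 11.2% of all measured genes. Of the matched genes, 14 of 23 SOX and 27 of 57 FOX genes were measured. Members below 1 CPM in wild type, such as sox4a and FOXP4, passed the filter only through the MZdicer libraries. These shares therefore lean to the higher side. By level, 18.3% of all genes of 1 to 3 CPM and 12.8% of those of 3 to 10 CPM were higher. Both families also have members above these levels.

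T-box genes were higher in 1 (10%) and lower in 2 (20%) of 10, beside 11.2% and 4.28% of all measured genes. Their median was -0.28 (-1.48 in uninjected MZdicer). TBX5, a heart and fin bud factor, was at 1.46 CPM in wild type embryos, 11.6 CPM after the duplex, 9.7 CPM in uninjected MZdicer, 13.7 CPM after the hairpin and 22.2 CPM after the 3xPS hairpin. Every MZdicer library was above wild type, the duplex by 8.0-fold [5.67, 11.6]. tbx16l, a mesodermal T-box gene, was at 106 CPM in wild type embryos and 41.99 CPM after the duplex, and at 24.4, 19.3 and 15.6 CPM in the uninjected, hairpin and 3xPS hairpin libraries of MZdicer, 2.53-fold lower [2.35, 2.71]. KLF genes had 1 higher of 13, KLF11 (ENSDARG00000013794), 2.85-fold higher [2.38, 3.43], with a median of -0.11. The single measured HOX gene, HOXC6, was 2.46-fold higher [1.18, 5.5], at 0.433 CPM in wild type embryos and 1.07 CPM after the duplex. Of 38 matched HOX genes no other passed the filter, and HOXC6 did so only through the MZdicer libraries.

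Solute carriers, the largest family examined, were higher in 30 of 191 (15.7%, beside 11.2% of all measured genes) and lower in 6 (3.14%, beside 4.28%). The median of the family was 0.30 (0.19 in uninjected MZdicer). By level, 18.3% of all genes of 1 to 3 CPM and 12.8% of those of 3 to 10 CPM were higher. SLC16A3, a lactate transporter, was at 42.5 CPM in wild type embryos and 161 CPM after the duplex, and at 281, 188 and 227 CPM in the uninjected, hairpin and 3xPS hairpin libraries of MZdicer, 3.79-fold higher [3.55, 4.06] with the duplex. SLC46A3, a lysosomal carrier, was at 0.865 CPM in wild type embryos and 9.24 CPM after the duplex, and at 20.2, 11.6 and 13.3 CPM in the uninjected, hairpin and 3xPS hairpin libraries of MZdicer, 10.7-fold higher [6.88, 17.4]. SLC1A4, a neutral amino acid transporter, was 12.04-fold higher [5.27, 33.9], at 0.236 CPM in wild type embryos and 2.84 CPM after the duplex. slc6a11a, of the GABA transporter family, was 24.1-fold higher [6.31, 205] with 2 counts in wild type, so its interval is wide. Of 352 matched solute carriers, 191 were measured. Members below 1 CPM in wild type, such as SLC46A3, SLC1A4 and slc6a11a, passed the filter only through the MZdicer libraries. The share called higher therefore leans to the higher side.

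**Figure D3:**
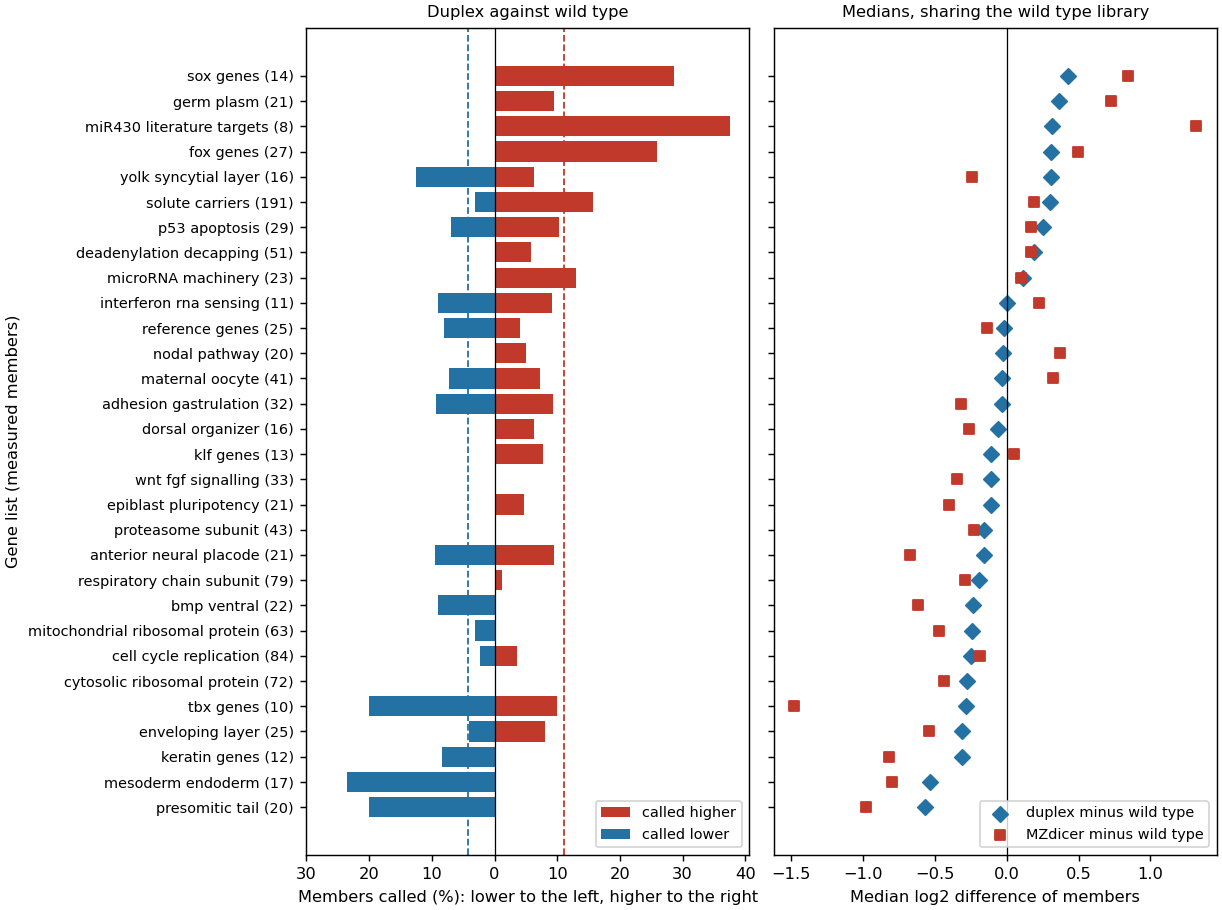
Left, share of the measured members of each gene list with at least 8 of them called lower (blue, to the left) or higher (red, to the right) with the duplex than in wild type, with dashed lines at 4.28% and 11.2%, the shares over all measured genes. Right, median log2(CPM + 0.5) difference from wild type of the duplex library (blue diamonds) and of uninjected MZdicer (red squares), which share the wild type library; among the lists plotted, presomitic and tail genes have the lowest duplex median, -0.57, and SOX genes the highest, 0.43.

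The 15 named genes furthest above wild type, ranked by the interval bound nearest to equality, had wild type levels of 0 to 3.74 CPM. tmprss15, which encodes enteropeptidase, the activator of trypsinogen, was at 0.0393 CPM in wild type embryos, 20.01 CPM after the duplex, 24.5 CPM in uninjected MZdicer, 29.2 CPM after the hairpin and 30.9 CPM after the 3xPS hairpin. It was 509-fold higher [90.9, 20133] than wild type, where it had a single count. RAB14, a small GTPase of membrane traffic, was at 0.0787 CPM in wild type embryos, 23.1 CPM after the duplex, 19.9 CPM in uninjected MZdicer, 28.3 CPM after the hairpin and 22.4 CPM after the 3xPS hairpin, and 294-fold higher [81.03, 2433] with the duplex. Both genes were near 0 in wild type alone. LY75, an endocytic receptor of the C-type lectin family, was at 3.74 CPM in wild type embryos, 93.9 CPM after the duplex, 265 CPM in uninjected MZdicer, 199 CPM after the hairpin and 274 CPM after the 3xPS hairpin. It was 25.1-fold higher [20.5, 31.2] than wild type and 2.8-fold lower [2.69, 2.98] than uninjected MZdicer.

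LMO2, a LIM-domain factor of blood and endothelial precursors, was at 1.73 CPM in wild type embryos and 36.2 CPM after the duplex, and at 24.3, 37.2 and 27.3 CPM in the uninjected, hairpin and 3xPS hairpin libraries of MZdicer, 20.9-fold higher [15.4, 28.95]. ZFYVE26, a FYVE-domain protein of lysosome and autophagy traffic, was at 1.26 CPM in wild type embryos and 27.5 CPM after the duplex, and at 21.6, 19.4 and 26.1 CPM in the uninjected, hairpin and 3xPS hairpin libraries of MZdicer, 21.9-fold higher [15.4, 32.3]. pcsk5a, a proprotein convertase, was 62.97-fold higher [24.3, 233], and rtn3, a reticulon of the endoplasmic reticulum, 131-fold higher [23.2, 5231]. In these genes every MZdicer library was above wild type. fbxo44.9, an F-box gene, was at 0.393 CPM in wild type embryos and 20.997 CPM after the duplex, and at 12.3, 17.005 and 14.01 CPM in the uninjected, hairpin and 3xPS hairpin libraries of MZdicer, highest with the duplex at 53.4-fold higher [28.8, 112]. FAM107A was also highest there, at 0.0787 CPM in wild type embryos and 6.71 CPM after the duplex, 85.3-fold higher [23.3, 709.99]. rxfp3.3a1, a relaxin-family receptor gene, was 31.9-fold higher [18.03, 62.2], and NCAM2, a neural adhesion molecule, 83.3-fold higher [14.5, 3329].

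A further 4 of the 15 had no count in wild type, where 3 counts, the limit that a count of 0 allows, equal 0.118 CPM. NRAP, a muscle gene of the nebulin family, was at 0 CPM in wild type embryos and 3.47 CPM after the duplex, and at 3.61, 2.31 and 0.121 CPM in the uninjected, hairpin and 3xPS hairpin libraries of MZdicer. It was at least 29.4-fold higher with the duplex, while the 3xPS hairpin library stayed close to wild type. zgc:172120 was at least 28.8-fold higher, si:ch211-261n11.8 at least 22.7-fold and si:ch211-202h14.1 at least 18.4-fold. In all, 7 of the genes called higher had no count in wild type. Such genes passed the filter through the MZdicer libraries alone.

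The 15 named genes furthest below wild type were near 0 in the MZdicer libraries in most cases. si:dkey-19a16.7 was at 38.7 CPM in wild type embryos, 0 CPM after the duplex, 0 CPM in uninjected MZdicer, 0.0406 CPM after the hairpin and 0.0404 CPM after the 3xPS hairpin. With no count in the duplex library it was at least 327-fold lower. ABLIM1, an actin-binding LIM protein, was at 8.1 CPM in wild type embryos and 0.0395 CPM after the duplex, and at 0, 0.0812 and 0 CPM in the uninjected, hairpin and 3xPS hairpin libraries of MZdicer, 205-fold lower [36.4, 8148]. olfcb1, an olfactory receptor gene of class C, was at 5.43 CPM in wild type embryos and 0.0395 CPM after the duplex, and at 0, 0 and 0.0807 CPM in the uninjected, hairpin and 3xPS hairpin libraries of MZdicer, 138-fold lower [24.3, 5471]. zgc:173544 was 154-fold lower [42.4, 1281], si:ch211-197g15.9 98.99-fold lower [33.5, 483] and si:dkey-23k10.5 44.3-fold lower [17.02, 165]. All of these had at least 5.43 CPM in wild type and at most 0.401 CPM in every MZdicer library. The lower bound follows from the filter on the mean of the 5 libraries, which left out such genes with lower wild type levels.

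b2m, the light chain of MHC class I, was at 28.4 CPM in wild type embryos, 1.78 CPM after the duplex, 2.94 CPM in uninjected MZdicer, 1.42 CPM after the hairpin and 1.21 CPM after the 3xPS hairpin, 16.01-fold lower [11.8, 22.1] with the duplex. dap1b, a relative of a death-associated protein gene, was at 28.6 CPM in wild type embryos and 1.38 CPM after the duplex, and at 0.802, 1.62 and 1.01 CPM in the uninjected, hairpin and 3xPS hairpin libraries of MZdicer, 20.7-fold lower [14.7, 29.95]. FLNC (ENSDARG00000018820), the actin cross-linker filamin C, was at 20.02 CPM in wild type embryos and 0.908 CPM after the duplex, and at 1.0, 1.06 and 1.33 CPM in the uninjected, hairpin and 3xPS hairpin libraries of MZdicer, 22.1-fold lower [14.5, 35.1]. In all 3 genes every MZdicer library was below wild type. Lower values were also found for TRPC4, a cation channel, 25.8-fold lower [12.3, 65.01], for adgrg2b, an adhesion receptor, 24.1-fold lower [12.5, 53.5], and for ptpdc1b, a phosphatase-domain gene, 21.5-fold lower [11.5, 45.5]. pm20d1.2, a peptidase-family gene, was lowest with the duplex, at 5.23 CPM in wild type embryos and 0.158 CPM after the duplex, 33.1-fold lower [12.6, 123]. zgc:113208 was 13.01-fold lower [10.6, 16.1].

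RRM2 (ENSDARG00000078069), the small subunit of ribonucleotide reductase, which makes deoxynucleotides, followed another order. It was at 149 CPM in wild type embryos, 0.316 CPM after the duplex, 38.7 CPM in uninjected MZdicer, 10.02 CPM after the hairpin and 0.928 CPM after the 3xPS hairpin. It was 473-fold lower [239.8, 1096] with the duplex, the uninjected library lay nearest to wild type, and the 3xPS hairpin library was the next lowest after the duplex. The other identifier with that symbol, ENSDARG00000020711, was at 451 CPM in wild type embryos and 757 CPM after the duplex, and at 704, 789.8 and 726 CPM in the uninjected, hairpin and 3xPS hairpin libraries of MZdicer, 1.68-fold higher [1.64, 1.72] and not called. How reads shared by such copies were counted is not given in the sources used here.

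**Figure D4:**
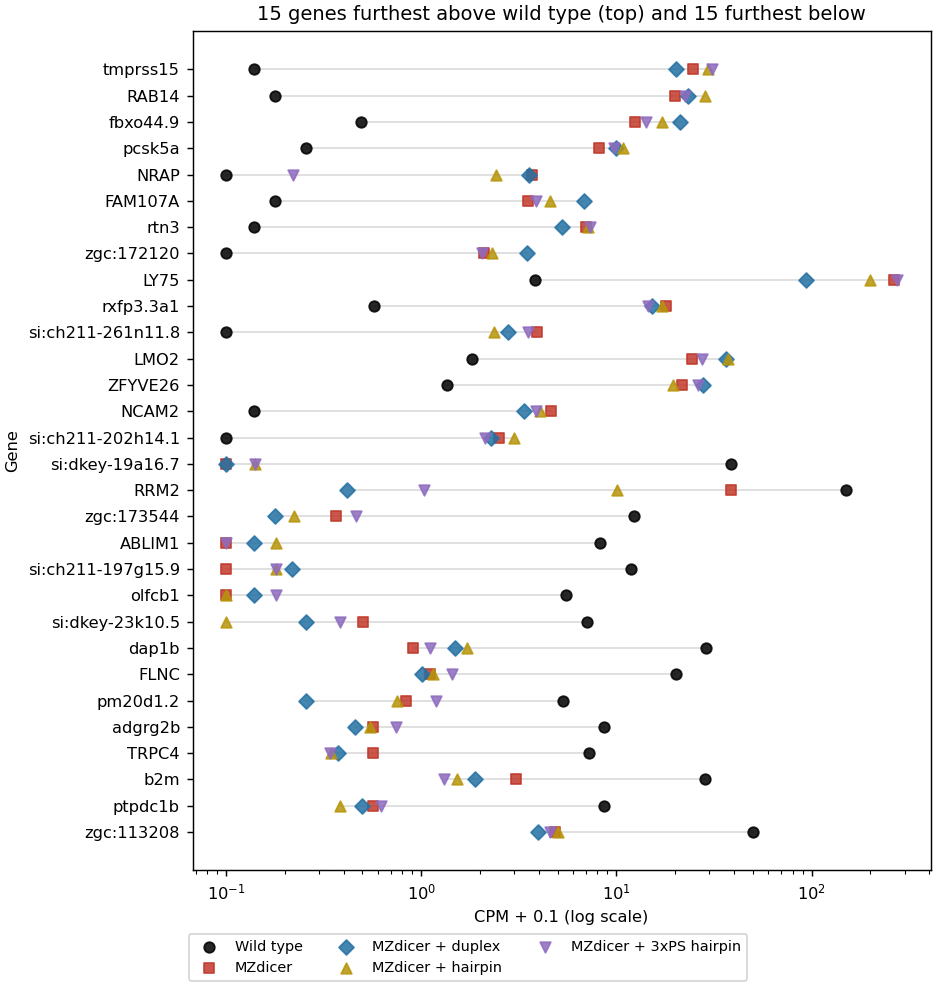
Level of the 15 genes furthest above wild type (top) and the 15 furthest below, as CPM + 0.1 on a log axis, with 1 point per library and a line over the range of the 5 libraries. Wild type (black) stands at one end for each gene, and the MZdicer libraries lie toward the other, with wide spreads for NRAP, LY75 and RRM2.

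Few genes set the duplex library apart from all others. A library was counted as apart at a gene where its CPM + 0.5 was at least 2-fold outside that of the other 4. The added 0.5 leaves out some genes of low level. An example is pm20d1.2, at 0.158 CPM with the duplex and 0.649 CPM in the next lowest library, after the hairpin. The filter on the mean of the 5 libraries keeps a gene low in 1 library more readily than a gene present in 1 library. Counts above and below are therefore not on equal terms. Wild type was apart at 1149 genes, 268 above and 881 below. Uninjected MZdicer was apart at 101 above and 14 below. The duplex library was apart at 2 above and 6 below, 0.0567% of the measured genes, and the hairpin libraries at 4 genes each, all below. With a 1.5-fold gap, chosen after seeing the data, the duplex library was apart at 26 above and 43 below. Wild type differs from the others in genotype and strain, while the 4 MZdicer libraries share both.

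Of the 8 genes at which the duplex stood apart, those described here were named after their values were seen. CHST11, a chondroitin sulfotransferase, was at 1.46 CPM in wild type embryos, 3.55 CPM after the duplex, 0.468 CPM in uninjected MZdicer, 0.731 CPM after the hairpin and 1.37 CPM after the 3xPS hairpin. g6pc1a.1, a glucose-6-phosphatase gene, was at 1.46 CPM in wild type embryos and 5.41 CPM after the duplex, and at 2.07, 2.39 and 1.98 CPM in the uninjected, hairpin and 3xPS hairpin libraries of MZdicer. These were the pair above all other libraries, 2.44-fold higher [1.65, 3.68] and 3.72-fold higher [2.57, 5.5] than in wild type. rab1ba, a GTPase of transport from the endoplasmic reticulum to the Golgi, was at 91.8 CPM in wild type embryos, 36.8 CPM after the duplex, 123 CPM in uninjected MZdicer, 115 CPM after the hairpin and 104 CPM after the 3xPS hairpin. It was 2.49-fold lower [2.31, 2.69] than in wild type, and among the 6 genes below it had the highest counts, 2334 in wild type and 933 with the duplex. fthl28, a ferritin gene, was at 24.98 CPM in wild type embryos and 1.93 CPM after the duplex, and at 4.88, 11.3 and 7.55 CPM in the uninjected, hairpin and 3xPS hairpin libraries of MZdicer, 12.9-fold lower [9.65, 17.6]. VIT, an extracellular matrix gene, was 6.52-fold lower [3.61, 12.7], at 3.34 CPM in wild type embryos and 0.513 CPM after the duplex. The dehydrogenase gene dhrs4 was 2.38-fold lower [1.66, 3.46] and HPS1, of lysosome-related organelle formation, 2.25-fold lower [1.66, 3.09]. Just outside the limit lay NUP50, a nuclear pore gene, at 179 CPM in wild type embryos and 89.4 CPM after the duplex.

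**Figure D5:**
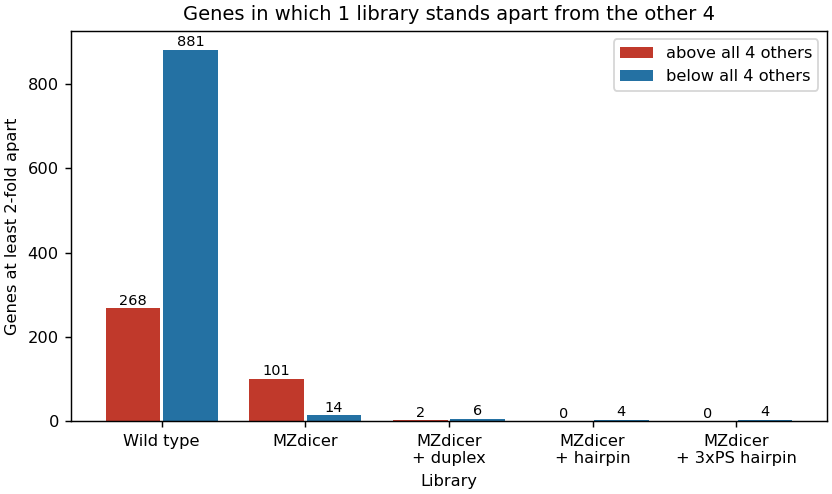
Number of genes (y axis) at which each library (x axis) lay at least 2-fold above (red) or below (blue) the range of the other 4 libraries, over the 14097 measured genes. Wild type has 268 and 881 such genes and the duplex library 2 and 6. The filter on the mean of the 5 libraries favours counts below over counts above.

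The hairpin and the 3xPS hairpin libraries can each be set against uninjected MZdicer without using a library of the comparison above. With the hairpin, the 1573 genes called higher with the duplex had a median log2 difference of -0.12, and 37.6% of them lay above uninjected MZdicer. The 604 genes called lower had a median of -0.07 and 42.7% above. Over all measured genes these values were -0.01 and 48.6%. With the 3xPS hairpin the medians were -0.00 for the higher, -0.06 for the lower and -0.01 for all genes.

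The neighbours of the mutated gene were also counted. Of the 40 measured genes nearest to dicer1 in RefSeq gene order (assembly GRCz12tu), 20 on each side, 2 were higher (5%) and 5 lower (12.5%) with the duplex than in wild type. Over the 8559 measured genes with a place in that order, 10.2% were higher and 3.75% lower. The 2 higher genes were ADCK1 and CYP26C1, and the 5 lower genes were EFCAB11, actn2b, mgmt, samd8 and ENO4, all named after their values were seen. samd8, a sphingolipid synthase family gene, was at 4.6 CPM in wild type embryos and 1.89 CPM after the duplex, and at 2.54, 2.15 and 2.06 CPM in the uninjected, hairpin and 3xPS hairpin libraries of MZdicer, 2.43-fold lower [1.72, 3.47]. Such a count of 5 genes gives no more than a description of this region.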

How the data were processed

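RNA from 15 pooled embryos per library was extracted with Trizol, selected for poly(A) and made into strand-specific TruSeq libraries, per the labels' protocols. CASAVA 1.8.2, TopHat2 2.0.8 and the Zv9 (danRer7) genome are named in the submitters' processing notes. The counter, the annotation, whether strand was used and how reads with several map positions were handled is not given in the sources used here. The authors deposited 1 table per library with 3 columns of read counts per gene, 3 matching RPKM columns and a gene length. The first count column, whole numbers in each library, was used. The authors' other count columns hold estimated counts with fractional values and were rounded for alternatives. The deposited RPKM was used for an alternative only.

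TMM factors over the 5 libraries came from edgeR 4.0.16 in R 4.3.3. The rest was computed in Python 3.11.15 with numpy 2.4.6, pandas 2.3.3 and scipy 1.17.1, and alternatives used DESeq2 1.42.0. Genes with a mean scaled CPM of at least 1 were kept. Folds are ratios of CPM, differences are of log2(CPM + 0.5), which understates the change of low genes, and a count of 0 was given a floor of 3 counts per library. Intervals and floors cover counting error only, and without molecular identifiers PCR copies of a molecule count as separate reads. On simulated counts for 14097 genes with no spread between embryo pools, the calls recovered 99 of 100 genes given a 2.83-fold change, 100 of 100 given an 8-fold change, and 23 genes given none. Of the identifiers, 18804 had a symbol in a table of names, printed as it stands there, in capitals for some genes; the others held 12.4% to 12.9% of counts.

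The genes and lists were chosen with earlier results of these data known, and no list is tested. The named genes were the 15 called genes with a symbol and the largest near bound in each direction, DICER1 and the Argonautes, the literature targets, at most 5 genes per other list, those furthest from wild type in log2, and 13 genes that earlier results named. The examples that a list gave by that rule are therefore its extremes. Genes named by the other rules, such as buc, BICC1, LSM14B and TBP from earlier results, can lie near wild type. Some of the genes counted are not reported here by name.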

Additional observations from a re-analysis of the deposited data

Results flagged for a closer look

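Some genes were counted only in columns that the comparison does not use. In the second count column, 52 genes had at least 100 estimated counts although the first column held 0 in every library. Of these, 8 were higher and 1 was lower with the duplex than in wild type, 9 in all. Over all genes kept in that column, 1581 of 14422 were higher and 571 lower. The gene si:ch211-139k8.4 was at 32.8 CPM in wild type embryos, 159 CPM after the duplex, 709 CPM in uninjected MZdicer, 323 CPM after the hairpin and 603 CPM after the 3xPS hairpin, on the scale of that column. It was 4.86-fold higher with the duplex than in wild type [4.51, 5.23]. In the third column 75 such genes were found, 11 higher and 3 lower, beside 1573 higher and 551 lower of all 14580 genes kept there. What these columns count is not given in the sources used here. Between 1922 and 2190 genes per library had fractional values in the second column and between 3838 and 4207 in the third (tolerance 1e-06).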

How the results depend on the processing

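No paired analysis was possible because each group is a single library, and for the same reason no library could be left out. The calls against wild type, 1573 higher and 604 lower, ranged from 1294 to 1705 higher and from 542 to 809 lower under the other scalings. The other count columns gave 1581 and 571, and 1573 and 551. Deposited RPKM, with no counting interval, gave 1471 and 478, and CPM treated the same way, added after seeing the data, 1498 and 564. A call on log2(CPM + 0.5), also added later, gave 1198 and 453. The filter and the threshold moved the counts by construction. Without a filter 1315 genes were lower and 2104 higher (61.5% of calls), and with a mean of at least 5 CPM 882 were higher and 215 lower (80.4%). A 1.5-fold threshold gave 2963 and 1697 and a 4-fold threshold 355 and 106. The median difference of all genes, 0.03, was 0.0765 with total-count scaling, -0.0091 with DESeq2 size factors and -0.0728 with upper-quartile factors. Of the 183 named genes, 173 to 183 kept their side of the threshold under each alternative run on them, and none changed direction while called. Depth limits low genes most: a count of 0 allows up to 0.118 CPM in wild type and in the duplex library.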
